A study of Homo sapiens with 18 samples.

Results

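Cells lacking TRIM27 were compared with wild-type cells while both were exposed to olaparib, and the comparison covers every gene that reached 1 FPKM in 3 or more of these 6 libraries. This rule kept 14641 of the 62830 genes in the authors' gene table, of which 12854 have a symbol. FPKM is a fragment count divided by transcript length and library size. The knockout group is MDA-MB-231, TRIM27 knockout, olaparib at 2 µM for 24 h, and the reference is MDA-MB-231 with wild-type TRIM27 under the same dose and time, with 3 libraries in each. MDA-MB-231 is an established human breast cancer line of the triple-negative, mesenchymal-like kind. Whether the knockout is 1 clone or a pool, and whether the libraries were grown separately, the labels do not say. The p-values therefore cover the scatter among these libraries, which may be technical. The treatment protocol mentions DMSO, but none of the libraries carries a vehicle label. Matching libraries of both genotypes without treatment and after an siRNA against PARP1 (siPARP1, 48 h), 3 each, gave the effects set beside the olaparib one. They also entered the same fit, where they share in the estimate of each gene's spread.

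TRIM27 is a RING-type ubiquitin ligase of the tripartite motif family that acts in ubiquitin and SUMO conjugation, endosomal transport and innate immune signalling. Olaparib blocks the catalytic site of PARP1 and PARP2 and holds these enzymes on damaged DNA, which stalls replication forks and leads to breaks. Several of the gene groups below respond to such stress in cultured cells. NRF2, encoded by NFE2L2, drives genes for glutathione, thioredoxin, iron storage and quinone reduction, and KEAP1 marks it for destruction. NF-kB drives cytokines such as the interleukins and the CXCL chemokines.

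Among lists with at least 10 measured genes the NRF2 antioxidant genes had the highest share of falls, so the promoters of 4 of them are shown. NRF2 binds the antioxidant response element, whose core is TGACNNNGC, and matches on either strand are in capitals. Sequences are RefSeq windows on GRCh38.p14, from 250 bases before to 50 bases after the gene's start, read 5′ to 3′ on the gene's strand. ME1 (chr6:83431002-83431301, minus strand) and PIR (chrX:15493284-15493583, minus strand) carry a match and were lower in knockout cells. GCLM (chr1:93909381-93909680, minus strand) carries a match and was not called. NQO1 (chr16:69726511-69726810, minus strand) has no match in this window and was far lower.
ME1: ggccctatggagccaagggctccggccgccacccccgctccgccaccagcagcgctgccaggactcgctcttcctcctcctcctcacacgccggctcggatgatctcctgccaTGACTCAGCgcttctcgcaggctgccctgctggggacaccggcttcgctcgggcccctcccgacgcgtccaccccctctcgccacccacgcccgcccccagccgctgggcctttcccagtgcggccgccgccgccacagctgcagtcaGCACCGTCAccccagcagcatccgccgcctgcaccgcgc
PIR: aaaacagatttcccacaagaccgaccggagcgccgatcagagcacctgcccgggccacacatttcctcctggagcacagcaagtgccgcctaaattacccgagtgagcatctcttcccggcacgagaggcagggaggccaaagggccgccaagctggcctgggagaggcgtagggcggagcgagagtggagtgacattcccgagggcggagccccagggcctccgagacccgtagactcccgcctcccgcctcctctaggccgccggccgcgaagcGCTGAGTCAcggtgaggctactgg
GCLM: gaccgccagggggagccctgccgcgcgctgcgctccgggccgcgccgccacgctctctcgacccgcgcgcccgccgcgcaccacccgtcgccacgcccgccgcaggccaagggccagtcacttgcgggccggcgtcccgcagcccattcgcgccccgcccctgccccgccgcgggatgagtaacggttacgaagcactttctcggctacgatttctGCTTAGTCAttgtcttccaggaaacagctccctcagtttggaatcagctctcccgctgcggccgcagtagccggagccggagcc
NQO1: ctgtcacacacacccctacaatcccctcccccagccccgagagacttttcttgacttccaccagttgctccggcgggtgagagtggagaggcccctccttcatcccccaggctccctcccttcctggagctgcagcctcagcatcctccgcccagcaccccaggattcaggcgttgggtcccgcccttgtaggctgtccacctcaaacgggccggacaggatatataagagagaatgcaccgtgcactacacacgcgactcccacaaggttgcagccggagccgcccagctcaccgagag
The core was found in 13.35% of all 35116 promoter windows, in 5 of the 18 measured NRF2 genes that had a window, and in 2 of the 10 of these that fell. The first ME1 match and the PIR match also hold the AP-1 site TGACTCA or its reverse complement TGAGTCA, so the same bases fit both motifs, and 4.949% of all windows hold that site. A match in these windows is a description of letters only.

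The libraries were alike within groups. Values correlated across genes at 0.986 to 0.988 within a group and 0.978 to 0.981 between the groups. Relative to wild-type library 1, steps in the lowest values gave a depth of 0.875 to 1.15 for knockout and up to 1.32 for wild-type libraries, and absolute depth is unknown. Loci that the authors assembled without a name held 45.1 ± 0.889% of the summed FPKM in knockout and 46.8 ± 0.699% in wild-type libraries (SD, n = 3 each), and their ranges did not overlap (exact two-sided permutation p = 0.1, the smallest that 3 against 3 allows). Markers of the line were high in both groups, with VIM at 1564 to 1634 FPKM in knockout and 1759 to 1922 FPKM in wild-type libraries and CD44 at 244 to 455 FPKM in knockout and 209 to 315 FPKM in wild-type libraries. ESR1 stayed at or under 0.257 FPKM in knockout and 0.217 FPKM in wild-type libraries, and PGR was listed at 0 in all 6 libraries. ERBB2, entered as a low marker, stood at 14.7 to 17.1 FPKM in knockout and 14.4 to 16.9 FPKM in wild-type libraries. GATA3, another, stood at 23.4 to 31.6 FPKM in knockout and 17.7 to 26.2 FPKM in wild-type libraries. Of 10 endothelial markers none reached the filter, and of 15 leukocyte markers CD14 and CD68 did, with the leukocyte list summing to 5.58 to 6.66 FPKM in knockout and 7.46 to 7.69 FPKM in wild-type libraries. Of 10 fibroblast markers 4 reached the filter, ACTA2 most of all, and the list summed to 129 to 133 FPKM in knockout and 137 to 147 FPKM in wild-type libraries. Of 13 neural markers 4 did, TUBB3 most of all, with sums of 39.4 to 43.1 FPKM in knockout and 43.2 to 45.9 FPKM in wild-type libraries. CD3E and TYROBP were listed at 0, and the part of these differences in other results was not tested.

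TRIM27 itself (ENSG00000204713, GRCh38 chromosome 6, 28903002 to 28923989) measured 0.555, 0.681 and 0.650 FPKM in the knockout libraries under olaparib and 1.27, 1.502 and 1.41 FPKM in the wild-type libraries. The groups did not overlap, and the knockout mean was 45.2% of the wild-type mean (log2 -0.55, SE 0.096, limma adjusted p = 0.00133). The transcript was thus lower but still counted, and RNA abundance leaves the protein unmeasured. In such bulk libraries fewer cells with a transcript and less of it per cell cannot be told apart. PARP1, the enzyme that olaparib inhibits, stood at 40.6, 38.7 and 40.9 FPKM in knockout and 36.6, 41.9 and 37.9 FPKM in wild-type libraries, which overlap (log2 0.05, SE 0.068, adjusted p = 0.751). PAX6, the transcription factor named in the study's aim, lay below the filter at 0.104 to 0.436 FPKM in knockout and 0.109 to 0.337 FPKM in wild-type libraries (log2 0.05, SE 0.119, adjusted p = 0.97 in a limma fit of all genes above 0). Without treatment it had 0.967, 1.18 and 0.934 FPKM in knockout and 0.400, 0.501 and 0.331 FPKM in wild-type libraries (log2 0.52, adjusted p = 0.0142 in the same fit). The difference between these effects did not pass (adjusted p = 0.314).

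Across the 14641 genes, 1962 (13.4%) passed an adjusted p of 0.05 in limma on log2(FPKM + 1), a scale on which the changes of low genes are understated. Of these, 878 (6.0% of the genes tested) were higher in knockout cells and 1084 (7.4%) were lower. Changes were mostly small, with a median size of 0.34 among called genes. In a fit of the 6 olaparib libraries alone 1371 genes passed. At least a 2-fold difference in FPKM + 1 was seen in 21 genes that rose (0.143%) and 79 that fell (0.54%). In FPKM itself further called genes, such as TRIM27, differed by more than 2-fold. The filter itself kept 50 genes through the 3 knockout libraries alone and 99 through the 3 wild-type libraries alone, and 97 of these 149 were called. Such genes had to differ to be included. Of those named here, LNCAROD, UCHL1, SERPINB2, DSC3, SNRPN, NQO1, SAMD9L, POSTN, LAMA4 and TRIM27 reached 1 FPKM through the wild-type libraries alone, and MMP2, MAGEA6 and MAGEC2 through the knockout libraries alone. At the edge of the filter, 402 genes reached 1 FPKM in exactly 3 libraries and 407 left out reached it in exactly 2.

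**Figure D1:**
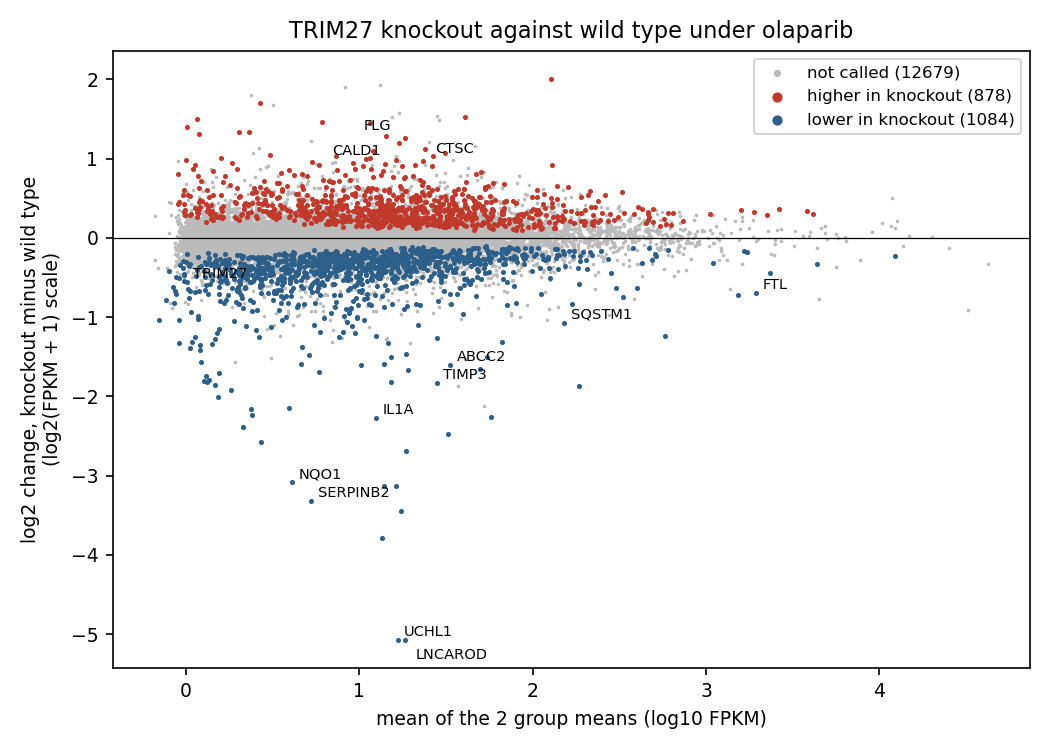
Each point is a gene, with the mean level of the knockout and wild-type groups under olaparib on the x axis (log10 FPKM) and the log2 change (knockout minus wild type, on the log2(FPKM + 1) scale) on the y axis. Red marks the 878 genes higher and blue the 1084 lower in knockout cells, and the changes past 2 on the log2 scale lie almost all below 0.

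Genes near silent in knockout cells had the widest gaps, and the 5 that follow passed the filter through the wild-type libraries alone. LNCAROD, a long noncoding RNA (chromosome 10, 52450874 to 52755409), measured 0.255, 0 and 0.129 FPKM in knockout and 37.1, 36.5 and 36.7 FPKM in wild-type libraries (log2 -5.07, SE 0.093, adjusted p = 7.35e-14). UCHL1, a ubiquitin hydrolase of neurons and some tumours (chromosome 4, 41256413 to 41268455), had 0.0332, 0 and 0.0285 FPKM against 35.6, 31.0 and 33.5 FPKM (log2 -5.07). The wild-type libraries of both genes lie more than 2 orders of magnitude above the knockout ones. SERPINB2, plasminogen activator inhibitor 2, had 0.182, 0.181 and 0.0376 FPKM in knockout and 7.96, 11.2 and 12.1 FPKM in wild-type libraries (log2 -3.32). DSC3, a desmosomal cadherin, stood at 0.0436, 0.0716 and 0.0739 FPKM against 5.57, 5.29 and 5.11 FPKM (log2 -2.57). SNRPN, an imprinted splicing factor gene, was listed at 0 in knockout libraries 1 and 2 and had 0.0105 FPKM in library 3, against 4.05, 4.45 and 4.25 FPKM in wild-type libraries. Each of these 5 genes also fell without treatment and under siPARP1, where the group means come from other libraries.

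The rises described next are of genes expressed in both groups. EPB41L4B, a cytoskeletal linker of the FERM family, had 20.9, 20.6 and 20.4 FPKM in knockout and 8.16, 8.05 and 7.51 FPKM in wild-type libraries (log2 1.28, SE 0.046, adjusted p = 1.88e-10). FLG, the epidermal filament-aggregating protein filaggrin, had 25.6, 26.7 and 26.9 FPKM against 10.4, 10.4 and 10.5 FPKM (log2 1.26). Among abundant genes PROCR, the endothelial protein C receptor, was higher at 170, 170 and 166 FPKM in knockout against 88.3, 91.6 and 86.2 FPKM in wild-type libraries (log2 0.92, adjusted p = 4.18e-09). Other rises that keep the groups apart were RDH10, a retinol dehydrogenase (log2 1.09), EFEMP1, a fibulin of the matrix (1.03), IGFBP4, which binds insulin-like growth factors (0.83), DPYD, the first enzyme of pyrimidine breakdown (0.62), and EZR, which links membrane and actin (0.54). CTSC, a lysosomal protease, rose by 1.12 and ATP8B1, a phospholipid flippase, by 1.08. OXTR, the oxytocin receptor, rose by 0.54, but it lies in a segment of chromosome 3 whose genes had a median of 0.40. Some calls rest on libraries that take 1 of 2 levels. COX7A2L, a respiratory supercomplex factor, had 62.4, 60.2 and 60.5 FPKM in knockout and 18.3, 18.04 and 26.2 FPKM in wild-type libraries (log2 1.53, SE 0.41, adjusted p = 0.0227), while untreated wild-type libraries read 59.9, 60.9 and 17.5 FPKM. It was no longer called when any single library other than wild-type library 3 was left out. PPP1R15B, a phosphatase subunit for eIF2α, had 15.6, 15.8 and 6.62 FPKM in knockout and 5.12, 6.42 and 5.55 FPKM in wild-type libraries (adjusted p = 0.0376), and it was lost without any library but knockout library 3.

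Many NRF2 antioxidant genes fell in knockout cells under olaparib. Of 25 measured, 14 fell, none rose and 11 did not pass, and their median log2 change was -0.33, against -0.01 for all genes tested, of which 7.4% fell. NQO1, the quinone reductase most used as an NRF2 reporter (ENSG00000181019, chromosome 16, 69706996 to 69726951), had 0.0208, 0.126 and 0.0611 FPKM in knockout and 9.38, 8.24 and 6.77 FPKM in wild-type libraries. Its knockout mean was 0.853% of the wild-type mean (log2 -3.08, SE 0.12, adjusted p = 3.58e-10), and no other gene of the list was near absent. NQO1 passed the filter through the wild-type libraries alone, so it had to differ to be included and adds no support to the list count. ABCC2, an export pump for glutathione conjugates (chromosome 10, 99782640 to 99852594), had 15.6, 16.5 and 16.1 FPKM in knockout against 53.7, 48.4 and 51.0 FPKM in wild-type libraries (log2 -1.61). OSGIN1, an oxidative-stress-induced growth inhibitor, fell by 1.10 and ABCC3, another conjugate pump, by 0.78.

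Other genes of the list fell by less. FTL, the ferritin light chain (chromosome 19, 48965301 to 48966878), stood at 1492, 1517 and 1456 FPKM in knockout and 2393, 2412 and 2405 FPKM in wild-type libraries (log2 -0.69, SE 0.042, adjusted p = 6.39e-08). FTH1, the heavy chain, had 241, 223 and 244 FPKM against 353, 411 and 340 FPKM (log2 -0.63). Both ferritin genes have many processed pseudogenes, so the share of reads given to each copy is uncertain. TXN, thioredoxin, fell to 292, 332 and 315 FPKM in knockout against 489, 506 and 463 FPKM in wild-type libraries (log2 -0.63, adjusted p = 6.46e-06). SRXN1, which repairs oxidised peroxiredoxins, fell by 0.63, GCLC, the catalytic subunit of glutathione synthesis, by 0.58, GSR, glutathione reductase, by 0.34, and ME1, a source of NADPH, by 0.67. TXN lies in a segment of chromosome 9 whose genes had a median of -0.18, and SRXN1 in one of chromosome 20 at -0.18. SLC7A11, the cystine importer, had 9.24, 8.94 and 8.59 FPKM in knockout against 12.2, 12.01 and 12.2 FPKM in wild-type libraries (log2 -0.40). NFE2L2, the factor itself, fell by 0.27 (adjusted p = 0.0188) and PIR by 0.28 (adjusted p = 0.0339). SQSTM1, the autophagy receptor p62 that binds KEAP1 and was not in the list, had 96.3, 93.7 and 103 FPKM in knockout and 215, 207 and 198 FPKM in wild-type libraries (chromosome 5, 179806398 to 179838078, log2 -1.07, SE 0.056, adjusted p = 1.25e-08).

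The list did not move as a whole. HMOX1, heme oxygenase, ranged over 16.3 to 18.2 FPKM in knockout and 16.5 to 17.6 FPKM in wild-type libraries (adjusted p = 0.999), and PRDX1 and GCLM had log2 values of 0.01 and -0.06. TXNRD1 overlapped between groups (log2 -0.33, adjusted p = 0.398), as did KEAP1 (0.13, adjusted p = 0.605), and TKT stood at 0.25 (adjusted p = 0.0879). The count of falls was 11 to 13 when each olaparib library was left out in turn, with 1 rise without knockout library 2, and 12 without genes of the shifted chromosome segments described further on. Without treatment 12 of the same 25 genes fell and 1 rose (median -0.24), where 11.2% of all genes fell and 9.65% rose. Under siPARP1 16 fell and none rose (median -0.36), where 11.4% of all genes fell and 12.1% rose.

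**Figure D2:**
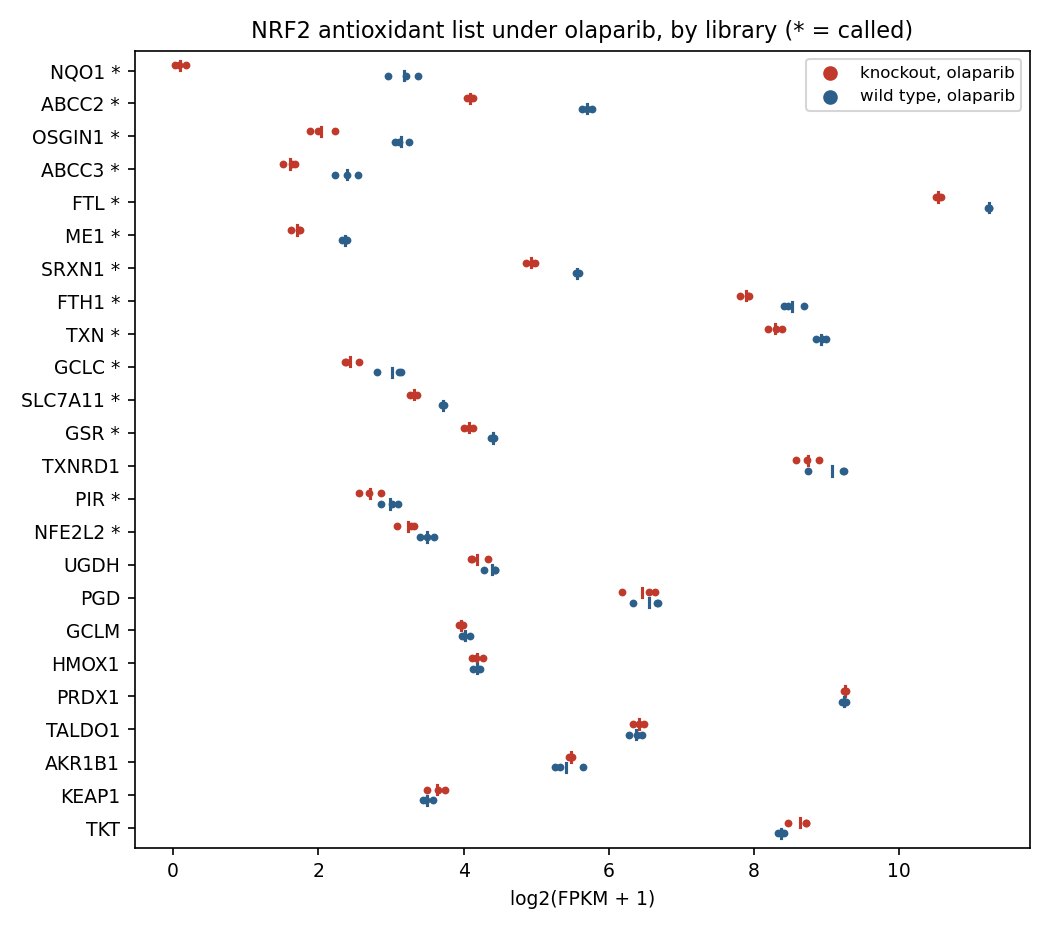
Levels of 24 of the 25 NRF2 antioxidant genes as log2(FPKM + 1), with 3 knockout libraries in red above 3 wild-type libraries in blue for each gene, and short vertical lines at the group means. Genes run from the largest fall (NQO1) to the highest value (TKT), and an asterisk marks the 14 called genes, all lower in knockout cells.

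NQO1, ABCC2, ABCC3 and SLC7A11 showed a wider gap under olaparib than without treatment. NQO1 without treatment had 0.0679, 0 and 0 FPKM in knockout and 1.81, 2.55 and 2.31 FPKM in wild-type libraries, so the knockout libraries are near the floor in both conditions and the wild-type libraries are higher under the drug. The difference of its knockout effect between conditions was -1.44 (SE 0.17, adjusted p = 0.000268). ABCC3 without treatment stood at 0.287, 0.247 and 0.365 FPKM in knockout and 0.396, 0.166 and 0.224 FPKM in wild-type libraries, which overlap, and differed in its effect by -0.83 (adjusted p = 0.0185). With a pseudocount of 0.1 the fall of ABCC3 under olaparib was not called. SLC7A11 differed by -0.43 (adjusted p = 0.00226) and ABCC2 by -0.41 (adjusted p = 0.00316).

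NF-kB targets and cytokines fell in 7 of 23 measured, with 1 rise (CD83, a surface marker of activated immune cells) and a median of -0.13. The called share was 34.78%, against 13.4% of all genes. IL1A, interleukin-1 alpha (chromosome 2, 112773915 to 112784590), had 3.23, 3.86 and 3.83 FPKM in knockout and 21.8, 21.8 and 20.7 FPKM in wild-type libraries (log2 -2.28, SE 0.054, adjusted p = 1.14e-12). IL1B had 2.19, 2.09 and 2.38 FPKM against 8.50, 7.95 and 7.58 FPKM (log2 -1.48), and the adhesion molecule ICAM1 1.27, 1.40 and 1.41 FPKM against 3.88, 3.37 and 3.15 FPKM (log2 -0.92). Without treatment IL1A fell by 2.00, IL1B by 1.85 and ICAM1 by 1.17, and the difference from olaparib did not pass for any of these 3 (adjusted p = 0.0714, 0.0862 and 0.225).

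The CXCL chemokines, which attract neutrophils, behaved otherwise. CXCL8 (chromosome 4, 73740506 to 73743716) had 5.12, 5.60 and 5.19 FPKM in knockout and 13.4, 14.3 and 12.8 FPKM in wild-type libraries under olaparib (log2 -1.20). Without treatment it had 1.17, 1.25 and 1.64 FPKM in knockout and 23.1, 22.9 and 22.97 FPKM in wild-type libraries (log2 -3.35). Knockout libraries were thus higher and wild-type libraries lower under the drug, and the effects differed by 2.15 (adjusted p = 1.63e-08). CXCL1 fell by 0.32 under olaparib, with 26.2, 27.8 and 28.6 FPKM in knockout against 34.4, 35.7 and 33.4 FPKM in wild-type libraries, with a far wider gap without treatment (interaction 2.19, adjusted p = 1.65e-11). CXCL2 fell by 0.40 and 1.94 (interaction 1.54). IL6 overlapped between the groups under olaparib, at 17.02, 17.9 and 19.03 FPKM in knockout and 19.2, 20.6 and 18.4 FPKM in wild-type libraries (log2 -0.10, adjusted p = 0.401), whereas it fell by 1.37 without treatment (interaction 1.27, adjusted p = 6.23e-06). In all, 9 of the 23 genes had an interaction and each was more positive under olaparib, against 212 positive (1.45%) and 242 negative (1.65%) interactions among all genes. Among the 9 were also BIRC3, an inhibitor of cell death (0.95), and NFKBIA, which retains NF-kB in the cytoplasm (0.61).

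**Figure D3:**
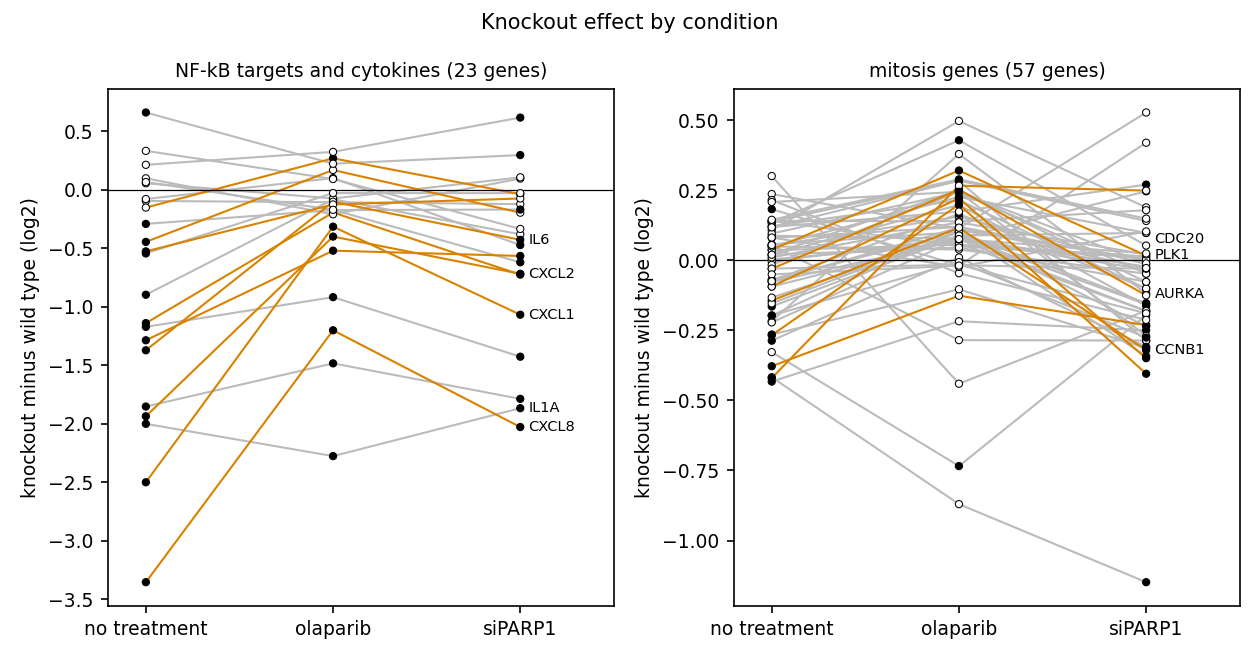
The knockout effect (knockout minus wild type, log2) of each NF-kB target (left) and each mitosis gene (right) without treatment, under olaparib and under siPARP1. Filled points passed the adjusted p of 0.05 in that condition, and orange lines mark genes whose effect differed between olaparib and no treatment, such as CXCL8 at -3.35 and -1.20.

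Among 23 interferon-stimulated genes 7 fell and 1 rose (34.78% called, against 13.4% of all genes), with a median of -0.22. SAMD9L, a growth-restraining antiviral factor, had 0.104, 0.105 and 0.188 FPKM in knockout and 2.16, 2.22 and 1.55 FPKM in wild-type libraries (log2 -1.39), and its neighbour SAMD9 fell by 0.76. Both lie in a segment of chromosome 7 whose genes had a median of -0.23. SAMD9L passed the filter through the wild-type libraries alone, so it had to differ to be included. TRIM22, an antiviral TRIM protein, fell by 0.84, the RNA sensor IFIH1 by 0.48, PARP14 by 0.42, STAT2 by 0.36 and the tetherin BST2 by 0.32. IFIT1, which binds foreign RNA, was the exception at 22.2, 21.8 and 21.8 FPKM in knockout against 10.2, 11.01 and 10.6 FPKM in wild-type libraries (log2 0.98, adjusted p = 1.23e-08). Without treatment 4 of the 23 fell and 2 rose (median -0.01), where 11.2% of all genes fell and 9.65% rose. Under siPARP1 15 fell and none rose (median -0.47), where 11.4% of all genes fell and 12.1% rose, with IFIT1 at -1.18. Rises numbered 2 under olaparib without wild-type library 2, and falls 5 without genes of shifted chromosome segments.

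Among 28 immediate early genes 8 fell and 2 rose (median -0.14), 35.71% called against 13.4% of all genes. FOS, a subunit of AP-1, had 57.2, 57.2 and 57.8 FPKM in knockout and 98.9, 104 and 103 FPKM in wild-type libraries (log2 -0.82, SE 0.084, adjusted p = 1.34e-05). FOSB fell by 0.73, the mRNA-decay factor ZFP36 by 0.71, the zinc-finger factor EGR1 by 0.57 and KLF4 by 0.37. JUN, the main partner of FOS, had 112, 112 and 113 FPKM in knockout and 106, 107 and 107 FPKM in wild-type libraries, groups that did not overlap (as for 33.5% of all genes), and did not pass (log2 0.07, adjusted p = 0.268). FOSL2 had 9.46, 38.1 and 8.91 FPKM in knockout and 37.6, 37.6 and 36.7 FPKM in wild-type libraries, so knockout library 2 sat with the wild type. Its call (log2 -1.26, SE 0.35, adjusted p = 0.0278) was lost without any library but knockout library 2. The number of falls was 5 without knockout library 3 or any 1 wild-type library, and the number of rises 1 without knockout library 1 or 3 or wild-type library 1.

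Of 19 metalloproteinases and TIMPs, 8 rose, 3 fell and 8 did not pass (57.89% called, against 13.4% of all genes). The 8 that rose are proteases and the 3 that fell are TIMP1, TIMP2 and TIMP3, the tissue inhibitors. TIMP3 (chromosome 22, 32801701 to 32863043) had 11.9, 11.8 and 11.7 FPKM in knockout and 44.6, 44.6 and 44.0 FPKM in wild-type libraries (log2 -1.83, SE 0.04, adjusted p = 6.31e-13), and its gap without treatment was larger (log2 -4.02, interaction 2.19, adjusted p = 1.65e-11). MMP2, gelatinase A, had 3.34, 3.57 and 3.09 FPKM against 0.827, 0.658 and 0.683 FPKM (log2 1.33, adjusted p = 8.44e-09). MMP2 passed the filter through the knockout libraries alone, so it had to differ to be included. MMP24 rose by 0.85, ADAM19 by 0.48, ADAM9 by 0.35, MMP14, which activates MMP2 at the cell surface, by 0.33, and ADAM10 by 0.25. TIMP2 ran unevenly over the knockout libraries, at 65.2, 53.2 and 35.0 FPKM against 79.0, 95.6 and 96.2 FPKM in wild-type libraries (adjusted p = 0.032). Only 1 of the 3 inhibitors passed without knockout library 2 or 3 or wild-type library 2, and 5 proteases rose with sums of the deposited transcript values.

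Mesenchymal markers rose in 6 of 21 and fell in 2 (38.1% called, against 13.4% of all genes). FN1, fibronectin, had 387, 395 and 398 FPKM in knockout and 247, 277 and 262 FPKM in wild-type libraries (log2 0.58, SE 0.056, adjusted p = 6.82e-06). FOXC2, a mesenchymal transcription factor, rose by 0.64 and CALD1, an actin-binding protein, by 1.20. POSTN, periostin, fell by 1.28, with 0.666, 0.508 and 0.158 FPKM in knockout against 3.26, 2.17 and 2.06 FPKM in wild-type libraries. POSTN passed the filter through the wild-type libraries alone, so it had to differ to be included. Collagens and matrix proteins fell in 6 and rose in 6 of 31 (38.71% called, against 13.4% of all genes). COL12A1 fell to 5.77, 6.99 and 5.69 FPKM in knockout against 26.4, 21.6 and 24.5 FPKM in wild-type libraries (log2 -1.82), COL3A1 by 0.76, and COL4A2 of the basement membrane rose by 0.55. The laminin chain LAMA4 had 0.0663, 0.386 and 0.268 FPKM in knockout against 4.64, 4.31 and 4.61 FPKM in wild-type libraries (log2 -2.16). LAMA4 also passed the filter through the wild-type libraries alone. Of 15 genes of the plasminogen system 3 fell, among them SERPINB2 (log2 -3.32), and 1 rose, ANXA2 by 0.33. The called share was 26.67%, against 13.4% of all genes. The thrombin receptor F2R had 27.01, 25.8 and 27.4 FPKM in knockout and 52.6, 53.7 and 52.0 FPKM in wild-type libraries (log2 -0.96, adjusted p = 2.55e-09), and F2RL1 fell by 0.72. VIM itself fell by 0.18 (adjusted p = 0.0352), a call lost when any 1 of 5 libraries was left out.

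Mitosis genes rose under olaparib in 14 of 57, fell in 1 and had a median of 0.10, where 6.0% of all genes rose and 7.4% fell. CDC20, the activator of the anaphase-promoting complex, had 74.6, 76.6 and 72.0 FPKM in knockout and 59.9, 60.8 and 57.5 FPKM in wild-type libraries (log2 0.32, SE 0.041, adjusted p = 0.000101). The centromeric histone CENPA rose by 0.43, the cyclin CCNB2 by 0.29, the checkpoint kinase BUB1B by 0.28 and the kinesin KIF20A by 0.22. The phosphatase CDC25B was the fall, with 10.6, 9.35 and 9.67 FPKM in knockout against 15.4, 17.8 and 18.1 FPKM in wild-type libraries (log2 -0.73). Without treatment the same list had 1 rise and 10 falls (median 0.01), where 9.65% of all genes rose and 11.2% fell. Under siPARP1 it had 2 rises and 15 falls (median -0.08), where 12.1% of all genes rose and 11.4% fell. The difference between conditions passed for 7 of the 57 genes, all more positive under olaparib, among them CCNB1 (0.26, adjusted p = 0.0185) and CDC25A (0.69, adjusted p = 0.0185). Among all genes 1.45% had a positive and 1.65% a negative interaction. The rises are small, and their number was 9 without knockout library 2, with 2 falls without knockout library 1 or 3, and 7 in a fit of the 6 olaparib libraries alone.

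Genes of DNA replication showed less. Under olaparib 4 of 54 rose and 1 fell (9.259% called, against 13.4% of all genes). Without treatment 1 rose and 14 fell, where 9.65% of all genes rose and 11.2% fell. UHRF1, which couples DNA methylation to replication, rose by 0.37 and the helicase subunit MCM5 by 0.26. UHRF1 was not called with sums of transcripts (adjusted p = 0.428), nor MCM5 in the fit of the olaparib libraries alone (adjusted p = 0.0511). PCNA, FEN1, TYMS and CCNE1 had an effect that was more positive under olaparib than without treatment, and none of the 4 was called under olaparib (log2 -0.11, -0.11, -0.06 and 0.01). Replication-dependent histone genes fell in 8 of 23 and none rose (median -0.26), 34.78% called against 13.4% of all genes. H2BC21 had 6.72, 6.90 and 6.57 FPKM in knockout and 12.97, 13.1 and 12.8 FPKM in wild-type libraries (log2 -0.85, adjusted p = 2.93e-06), and H2BC8 had 26.6, 24.2 and 24.8 FPKM against 41.7, 43.6 and 40.3 FPKM (log2 -0.71). Histone copies share reads, and these transcripts mostly lack the poly(A) tail that the libraries select for, so their levels are uncertain. The count of falling histones was 3 to 7 when a library was left out, with the fewest without wild-type library 2, 4 without knockout library 2 and 5 without knockout or wild-type library 1.

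DNA repair genes, which matter for the response to PARP inhibitors, changed in 8 of 65, with 5 rises and 3 falls, close to the 13.4% of all genes. EXO1, the resection nuclease, had 5.31, 5.23 and 4.90 FPKM in knockout and 3.86, 3.80 and 3.81 FPKM in wild-type libraries (log2 0.35, adjusted p = 0.006). FANCD2 (0.38) rose and lies in a segment of chromosome 3 whose median was 0.40, and RAD52 (0.34 lower, adjusted p = 0.0484) lies in a segment of chromosome 12 at -0.29. RAD52 lost its call whichever library was left out, and sums of the deposited transcript values put FANCD2 at -0.39, not called. Those sums held 38.15% of the FANCD2 gene value in knockout and 74.09% in wild-type libraries. Of 30 PARP family and cofactor genes none rose and 3 fell (10.0% called, near the 13.4% of all genes). These were PARP14, MACROD1 and TNKS2, the last by 0.12 in a call lost whichever library was left out. MACROD1 lost its call without knockout library 1 or wild-type library 1 or 3. Of 6 drug exporters ABCC2 and ABCC3 fell and ABCC4 rose by 0.20, where 7.4% of all genes fell and 6.0% rose. ABCC2 and ABCC3 are also counted in the NRF2 list, so their falls are not a separate result. The call of ABCC4 was lost whichever library was left out.

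Stress genes moved both ways. In the ATF4 list 7 of 37 fell and 3 rose (27.03% called, against 13.4% of all genes). DDIT3, the factor CHOP, had 12.3, 13.5 and 13.04 FPKM in knockout and 26.0, 26.7 and 20.9 FPKM in wild-type libraries (log2 -0.86, adjusted p = 0.000184), and STC2, a secreted glycoprotein, fell by 0.76. Their gaps were wider than without treatment by -0.73 and -0.57. Endoplasmic reticulum chaperones rose in 5 of 35 and fell in 2, where 6.0% of all genes rose and 7.4% fell. Without treatment 4 of these chaperone genes rose and 14 fell, where 9.65% of all genes rose and 11.2% fell. PDIA3 rose by 0.49, but stood at 0.23 with sums of transcripts (adjusted p = 0.882) and was not called in the fit of the olaparib libraries alone (adjusted p = 0.0517). CALR rose by 0.27, a call lost without knockout library 1 or 2 or wild-type library 2 or 3, and the main chaperone HSPA5, which had fallen by 0.61 without treatment, did not differ under olaparib (log2 0.02). Among 40 genes of hypoxia and glycolysis, 3 rose and 4 fell (17.5%, near the 13.4% of all genes). Without treatment 18 rose and 4 fell, where 9.65% of all genes rose and 11.2% fell. ENO2, neuronal enolase, ranged over 6.84 to 7.75 FPKM in knockout and 9.23 to 11.98 FPKM in wild-type libraries under olaparib (log2 -0.46, adjusted p = 0.127), against a log2 value of 0.87 without treatment (interaction -1.33). GAPDH fell by 0.45 in the chromosome 12 segment at -0.29. Cholesterol synthesis genes fell in 4 of 27 and none rose (14.81%, near the 13.4% of all genes), with INSIG1, the sterol sensor, lower by 0.84, though it and CYP51A1 (0.28 lower) lie on chromosome 7 in segments at -0.16 and -0.23.

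**Figure D4:**
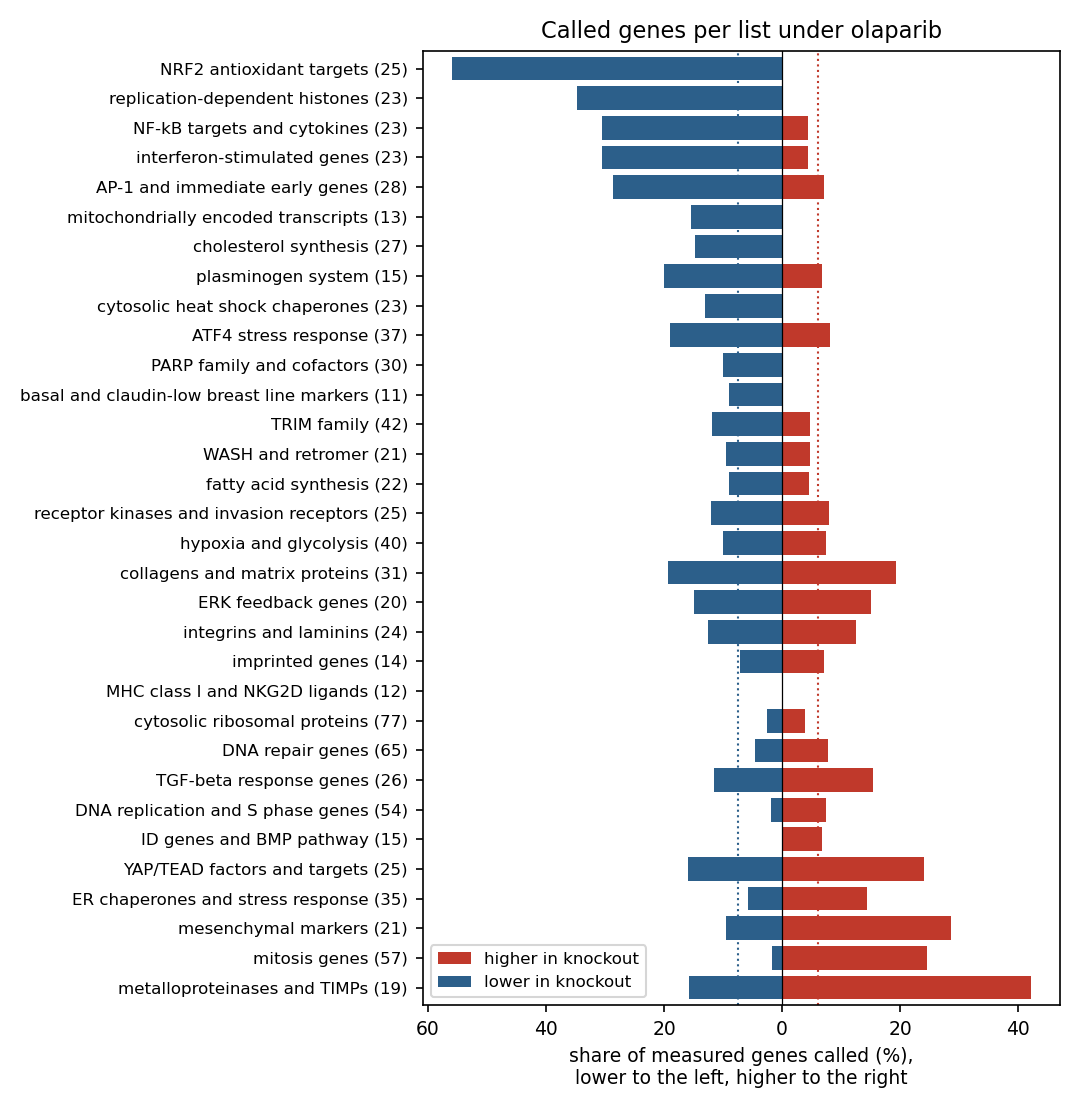
For lists with at least 10 measured genes (number in brackets), the share of genes called lower in knockout cells (blue, to the left) and higher (red, to the right) under olaparib, in percent. Dotted lines mark the shares over all genes tested, 7.4% and 6.0%, and the NRF2 list reaches furthest to the left with 14 of 25.

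Small lists held a few strong changes. Of 6 measured cancer-testis antigens 3 rose, where 6.0% of all genes did, but MAGEA6 and MAGEC2 were included only through the knockout libraries. MAGEA6 stood at 1.94, 2.15 and 1.67 FPKM in knockout and 0.124, 0.0674 and 0.130 FPKM in wild-type libraries (log2 1.40). MAGEC2 rose by 1.01 and PRAME by 0.48. MAGEA6 has near-identical paralogs, so its reads may be shared. IGF2, an imprinted growth factor, rose by 0.78. Of the TRIM family 2 of 42 rose and 5 fell (16.67% called, near the 13.4% of all genes). MID1, a microtubule-bound ubiquitin ligase, had 131, 130 and 125 FPKM in knockout against 85.1, 84.0 and 83.0 FPKM in wild-type libraries (log2 0.61, adjusted p = 1.22e-07). Ribosomal protein genes changed in 5 of 77 (6.494%, under the 13.4% of all genes), and RPSA and RPL31 of these lie in shifted chromosome segments (medians 0.32 and -0.27). RPSA lost its call without wild-type library 1. Of 13 transcripts encoded in mitochondria 2 fell (15.38%, near the 13.4% of all genes called), MT-CYB by 0.32 and MT-CO3 by 0.22. MT-CO3 lost its call without knockout library 1 or 2 or wild-type library 1 or 3, and in the fit of the olaparib libraries alone (adjusted p = 0.0713).

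The knockout effect was next set beside that without treatment, whose group means come from other libraries although the spread was estimated over all. Of the 1962 genes called under olaparib, 1179 (60.09%) were also called in the same direction without treatment, which is 38.66% of the 3050 genes called there (20.8% of those tested). Under siPARP1 3433 genes (23.4%) were called, and 1208 matched in direction, 61.57% of the olaparib calls and 35.19% of the siPARP1 calls. Log2 changes of the 1962 genes correlated across genes at 0.82 with those of either condition, as a description, since genes are not independent replicates. Of the 100 called genes with at least a 2-fold change in FPKM + 1, 77 were called in the same direction in all 3 conditions.

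The knockout effect itself differed between olaparib and no treatment for 454 genes (3.1%). In 331 of these it was smaller under the drug and in 123 larger, and in 46 both effects were called with opposite signs. Of the 454, 230 were called without treatment and not under olaparib. Effects turned more negative under olaparib for CXorf38, an uncharacterised open reading frame, with 2.09, 2.41 and 2.21 FPKM in knockout and 9.69, 9.25 and 9.41 FPKM in wild-type libraries under olaparib (log2 -1.69) and -0.17 without treatment. PADI2, a peptidylarginine deiminase, rose by 0.58 under olaparib and by 2.12 without treatment. CBL, a ubiquitin ligase for receptor kinases, rose by 1.00 under olaparib, with 14.5, 14.7 and 15.2 FPKM in knockout and 7.85, 7.37 and 5.71 FPKM in wild-type libraries, and stood at -0.05 without treatment (interaction 1.05, adjusted p = 0.000108). There were 438 genes called under olaparib and in neither other condition, and the interaction passed for only 46 of them.

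**Figure D5:**
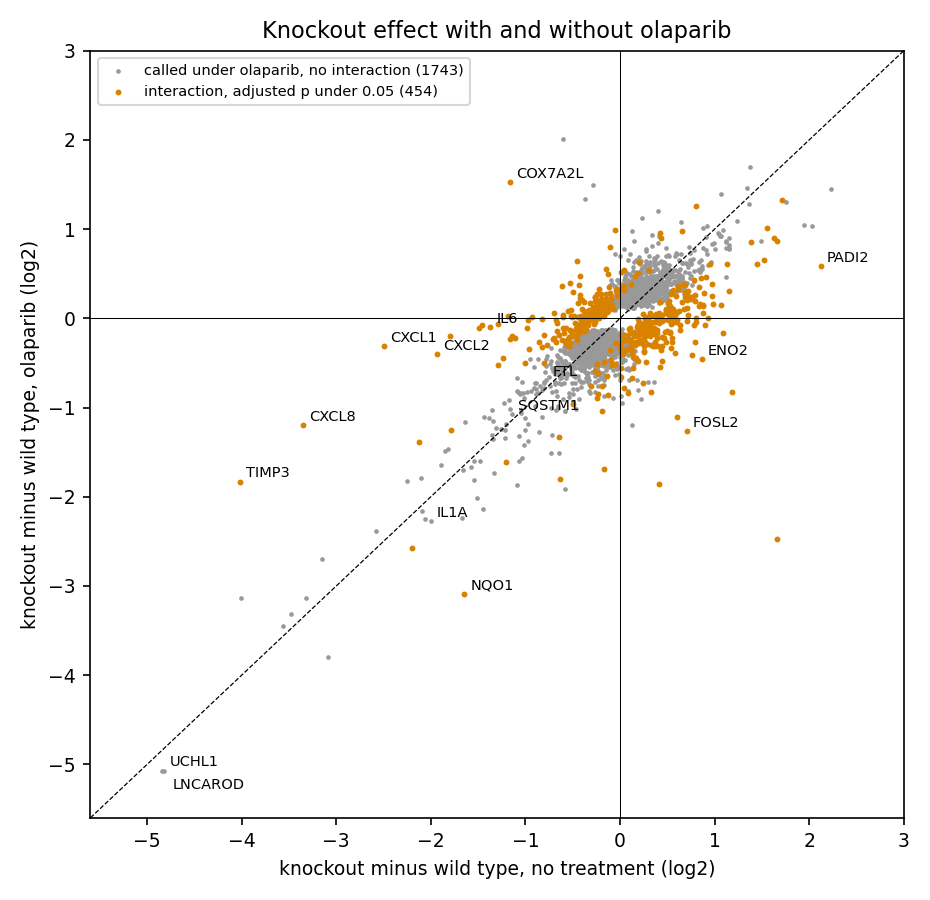
The knockout effect without treatment (x axis) and under olaparib (y axis) as log2 differences, for genes called under olaparib (grey) or with an interaction at an adjusted p under 0.05 (orange, 454), with a dashed line where both effects are equal. LNCAROD and UCHL1 lie near the line at about -5, while CXCL8, CXCL1 and TIMP3 lie above it and NQO1 and FOSL2 below it.

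Some differences followed position along chromosomes. Of 271 bins of 10 Mb with at least 15 genes, 26 had a median log2 change of at least 0.15 in size, 19 negative and 7 positive, and 25 of the 26 had the same sign without treatment and 25 under siPARP1. These bins hold 8.89% of the genes and 23.5% of the calls. The first 60 Mb of chromosome 3 had medians of 0.23 to 0.40, with 93.5% to 100% of its genes positive in each bin. The first 20 Mb of chromosome 12 had medians of -0.29 and -0.31, and 11 bins of chromosome 7 lay between -0.15 and -0.26. A difference in gene copies between the lines and a difference in regulation cannot be told apart from these values. Outside the 26 bins 712 genes rose and 789 fell, and of the leading genes NQO1, SQSTM1, FTL, IL1A, CXCL8, TIMP3, MMP2, FOS and CDC20 lie outside them.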

How the data were processed

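Poly(A) RNA of 18 libraries was sequenced, and the 6 olaparib libraries carry the comparison. The deposited values are FPKM per gene, made by the authors. Per the submitters' processing notes, GRCh38 and HISAT2 2.2.1 were used, beside fastp 0.23.2. StringTie 2.2.1, DESeq2 1.38.3 and featureCounts 2.0.3 are listed there too. Which of these made the FPKM values, the annotation release and the strand setting are not given in the sources used here. Absolute depth is unknown, which leaves no counting interval.

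Symbols came from a table of gene names (61757 identifiers matched) and positions from GENCODE 29 (58308 matched). The 15764 genes reaching 1 FPKM in 3 or more of the 18 libraries were fitted as log2(FPKM + 1) in limma 3.58.1 (R 4.3.3) with 6 groups and 12 residual degrees of freedom, and p-values were adjusted by Benjamini-Hochberg over all of them. Contrasts were knockout minus wild type in each condition, and the olaparib minus the untreated contrast (the interaction). The fit was tested on simulated data with independent normal noise. It recovered 62% of falls and 66% of rises of 0.5 on the log2 scale, with 4 false calls. For changes of 1 it recovered 84% of falls and 90% of rises. Neither changes in low genes nor jumps between levels were simulated. The main fit did not pair libraries by replicate number, and the labels do not say whether same-numbered libraries were handled together. Alternatives were the pseudocount, the filter, the set of libraries, 3 other scalings or gene sums, a replicate block, leaving out each library, and leaving out shifted chromosome bins.

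The naming rule took TRIM27 with PARP1 and PAX6, the 15 largest rises and falls with no overlap and at least 5 FPKM, up to 4 called genes per list, the 6 largest interactions each way, and the 6 surest changes each way above 50 FPKM. Other genes named, among them further members of the NRF2, NF-kB, mitosis and stress lists, were chosen after their values were seen. The members and lists were chosen with earlier results of these data known. A few genes are not reported here.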

Additional observations from a re-analysis of the deposited data

Results flagged for a closer look

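The knockout effect differed between olaparib and no treatment, by the interaction in limma at an adjusted p under 0.05, for 38 genes of the naming rule. Genes named outside that rule, such as BIRC3, NFKBIA, CCNB1 and CDC25A, are not in this count. The values that follow are the log2 effect under olaparib minus that without treatment. It was more positive under olaparib for 15 genes: COX7A2L 2.69, TIMP3 2.19, CXCL1 2.19, CXCL8 2.15, CXCL2 1.54, IL6 1.27, CBL 1.05, SAMD9L 0.74, SDF2L1 0.48, KIT 0.47, FLG 0.45, CLDN1 0.43, DNAJA1 0.35, IFIT1 0.33 and CDC20 0.28. It was more negative for 23: FOSL2 -1.97, PADI2 -1.54, CXorf38 -1.52, NQO1 -1.44, ENO2 -1.33, H2BC7 -0.92, ANKRD37 -0.84, ABCC3 -0.83, DDIT3 -0.73, H2BC21 -0.62, STC2 -0.57, MGARP -0.54, MMP24 -0.53, MACROD1 -0.46, F2R -0.45, COL3A1 -0.45, SLC7A11 -0.43, ABCC2 -0.41, MMP2 -0.38, DSC3 -0.37, SEMA3C -0.27, PPM1D -0.26 and ANKRD1 -0.23.

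Some of these genes take 1 of 2 levels across libraries. COX7A2L without treatment had 16.99 to 17.6 FPKM in knockout and 59.9, 60.9 and 17.5 FPKM in wild-type libraries. FOSL2 under olaparib had 9.46, 38.1 and 8.91 FPKM in knockout libraries. The part of such jumps in the differences was not tested.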

How the results depend on the processing

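The 1962 calls numbered 1886 with a pseudocount of 0.1, 1501 with no filter, 1371 in a fit of the 6 olaparib libraries alone and 1843 with the replicate block, and 1457 to 1521 when a library was left out. Same-numbered libraries had deviations correlating at -0.045 to -0.004, so no pairing was visible, but the labels do not say whether they were handled together. Rises of at least 2-fold on the fitted scale numbered 44 with a pseudocount of 0.1 and 32 after rescaling to TPM, against 21. Falling histones numbered 4 with a pseudocount of 0.1, 5 with no filter and 5 after rescaling to TPM, against 8, and falling AP-1 genes 5 with no filter, against 8. In a fit of the olaparib libraries alone NF-kB rises numbered 0 (of 1), AP-1 rises 1 (of 2), mitosis rises 7 (of 14) and mitosis falls 2 (of 1). Rising proteases numbered 5 with sums of transcripts, against 8, and mitosis falls 0 without shifted bins, an alternative chosen after seeing the data. Leaving out 1 library gave 11 to 13 falls and 0 to 1 rises for NRF2 genes, 9 to 12 rises and 1 to 2 falls for mitosis, 3 to 7 falls for histones, 5 to 7 falls and 1 to 2 rises for AP-1, 1 to 3 falls and 6 to 8 rises for proteases and inhibitors, and 1 to 2 rises for interferon-stimulated genes. The sign turned with sums of transcripts for FANCD2 (-0.39), GARS1 (1.01) and ERBB3 (-0.0084). These sums used the 202952 of 251074 transcripts linked to a GENCODE 29 gene and held unequal parts of these gene values. In knockout and wild-type libraries under olaparib the parts were 38.15% and 74.09% for FANCD2. They were 12.21% and 2.762% for GARS1 and 55.96% and 76.28% for ERBB3. With the bin median removed the sign turned for BHLHE40 (-0.063), DUSP7 (-0.026), FANCD2 (-0.014) and RPSA (-0.00079). PAX6 ranged from -0.061 to 0.135 over the left-out libraries. The cause was not tested. Of 153 called genes of the naming rule, 113 kept their call in every setting tested and 40 lost it in at least 1. Absolute depth, which would set the error of the lowest genes, is unknown.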
